A study of Mus musculus with 12 samples.

Results

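Chrysanthemum leaf ethanol extract (CLE), a plant extract that contains luteolin among other flavonoids, was compared with the high-fat diet (HFD) alone in epididymal white adipose tissue (eWAT), the fat pad around the epididymis of male mice. The comparison holds 6 of the 12 libraries of the series, namely CLE mice 2, 4 and 11 and HFD mice 12, 15 and 18, chosen by the diet in the sample labels and not by any measured value. All mice were male C57BL/6J that started the diets at 5 weeks of age and were killed after fasting at 21 weeks of age, after 16 weeks of diet. The HFD group ate the HFD, the CLE group ate the same HFD with 1.5% (w/w) CLE, and no other agent or transgene is named for either. For reference, the LU group ate the HFD with 0.003% (w/w) luteolin, the ND group ate a normal diet, and each had 3 mice. The 3 mice of a group were picked by the authors as representative, and RNA came from the whole tissue, so each value mixes adipocytes, immune cells, vessels and stroma. Of 22947 genes with a value, 12775 had at least 1 FPKM (mapped fragments scaled to transcript length and to the size of the library) in at least 3 of the 12 libraries and were tested.

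White adipocytes store triglyceride in a lipid droplet and release fatty acids by lipolysis, and they secrete hormones such as adiponectin and leptin. In obese eWAT, macrophages gather around large or dying adipocytes, take up their lipid into lysosomes and carry a set of markers led by TREM2. Collagen is deposited at the same time, and the genes of mature adipocytes are known to decline.

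The FPKM values carry no read counts, so the depth behind them is unknown. Totals over genes lay between 435095 and 455040 FPKM in the 12 libraries, and Pearson's r across genes was 0.98 to 0.987 between CLE mice, 0.989 to 0.991 between HFD mice and 0.934 to 0.959 between the groups. The labels of 4 libraries (CLE mouse 4, LU mouse 2 and ND mice 3 and 4) carry a letter R of unstated meaning, and no HFD library does. Separate animals are named in the labels, so the spread is between mice. Adipocyte genes were present at high levels in every library (*Fabp4*, the fatty acid carrier of adipocytes, with HFD values of 10463, 11876 and 10657 and CLE values of 16946, 16066 and 16490.1 FPKM). The 16 genes of epididymis epithelium that the table holds, the organ beside this fat pad, summed to 0.374 to 0.555 FPKM in the HFD mice and 0.21 to 0.424 in the CLE mice, and *Lcn5*, which defines that epithelium, was at 0 in every library. Values per mouse are given below in the order CLE mice 2, 4 and 11 and HFD mice 12, 15 and 18, in FPKM. Fold changes are CLE minus HFD on the log2(FPKM + 1) scale (an understatement for genes at low levels), with the standard error (SE, 3 mice per group) and the adjusted p of limma with Benjamini-Hochberg adjustment over all 12775 genes. Calls required an adjusted p below 0.05 together with a change of more than 1.5-fold.

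With CLE, 809 genes were called higher (6.33% of those tested) and 1296 lower (10.1%). The falls were larger than the rises. The median absolute log2 fold change was 0.98 among genes called lower and 0.77 among those called higher, and 103 genes fell more than 4-fold while 9 rose that far. No called rise exceeded 8-fold and 16 falls did. The CLE mice and the HFD mice did not overlap in 99.5% of the genes called lower and in 97.2% of those called higher, whereas they did not overlap in 50.6% of all genes tested (24.4% higher and 26.2% lower with CLE). The 3 CLE mice were not equally far from the HFD mean. Mouse 11 was the nearest of them in 76.2% of the genes called lower, with a median difference from the HFD mean of -0.84 on the log2 scale, against -1.11 for mouse 2 and -1.05 for mouse 4. Among the genes called higher the medians were 0.79, 0.88 and 0.72 for mice 2, 4 and 11. *Scd1*, a fatty acid desaturase, is listed at 0 in every CLE mouse, ND mouse and LU mouse and at 9764, 10168 and 8592 in the HFD mice. An exact 0 for this adipocyte gene can be a failed estimate of the quantification, so no fold is given. The counts of genes called lower and of large falls given above still include *Scd1*.

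**Figure D1:**
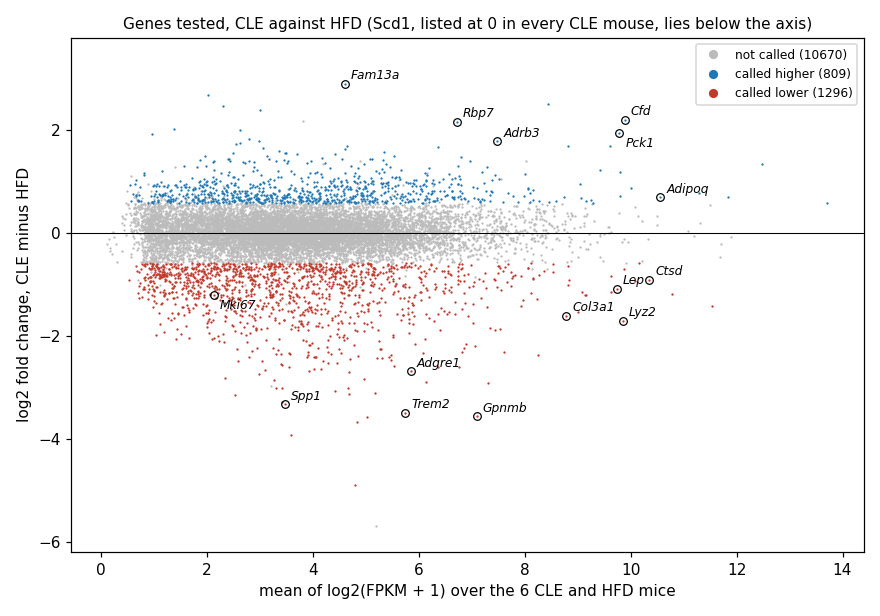
Each point is 1 of the 12775 genes tested, placed by its mean level over the 6 mice on the log2(FPKM + 1) scale (horizontal axis) and its log2 fold change, CLE minus HFD (vertical axis), in blue for the 809 called higher, in red for the 1296 called lower and in grey for the rest. Falls reach farther than rises: *Gpnmb* lies at -3.56 and *Fam13a*, the highest, at 2.91, and *Scd1* is below the axis.

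The lists of macrophage and monocyte identity and of lipid-associated macrophages had the lowest medians of the 36 gene lists. Of 25 tested genes of macrophage and monocyte identity, 20 fell and 0 rose, with a median log2 fold change of -1.70, beside 10.1% of all genes called lower and a median of 0.01 over all genes. *Adgre1*, which encodes the macrophage surface receptor F4/80, was at 15.9, 20.1 and 31.9 in the CLE mice and 164, 131 and 143 in the HFD mice. The groups were far apart for this gene, and the log2 fold change was -2.69 (SE 0.23, adjusted p = 2.4e-05). *Cd68*, a glycoprotein of the macrophage lysosome membrane, stood at 27.7, 39.6 and 71 against 285, 237 and 276 (-2.60, SE 0.29, adjusted p = 7.1e-05). *Csf1r*, the receptor for the growth factor that macrophages depend on, was at 38.9, 42.6 and 45.7 in the CLE mice against 149, 134 and 140.5 in the HFD mice (-1.71, SE 0.14, adjusted p = 2e-05). *Lyz2*, the lysozyme of myeloid cells and the most abundant of these, was at 431, 495 and 625 against 1787, 1709 and 1506. The 5 members not called were *Ccr2*, the receptor that monocytes follow into tissue (-0.55, adjusted p = 0.032, under the fold limit, but called at -0.69 without HFD mouse 12), *Fcgr2b* (-0.51, called at -0.61 without CLE mouse 4), *Mertk* (0.04), *Naaa* (0.09) and *Ly6c2* (0.28). In whole tissue, fewer macrophages and less of these RNAs per macrophage cannot be told apart.

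Of 28 lipid-associated macrophage genes, the set that marks macrophages laden with adipocyte lipid, 21 fell and 3 rose, with a median of -1.53. These are 75% lower and 10.7% higher, beside 10.1% and 6.33% of all genes. *Trem2*, the lipid receptor that drives this state, was at 6.25, 11.5 and 43.5 in the CLE mice and 209, 163 and 167 in the HFD mice (-3.50, SE 0.54, adjusted p = 0.00057). *Gpnmb*, a glycoprotein of the lysosome and cell surface, was at 14.9, 27.9 and 137 and 541, 412 and 459 (-3.56, SE 0.60, adjusted p = 0.001). In both genes CLE mouse 11 was several times above the other CLE mice and still below every HFD mouse. *Spp1*, the secreted protein osteopontin, fell from 34.3, 32.6 and 36.3 to 1.29, 1.72 and 6.02 (-3.33, SE 0.39, adjusted p = 8.8e-05). *Itgax*, which encodes CD11c, was at 5.75, 6.83 and 29.8 against 103, 72 and 76.5, a log2 fold change of -2.83. *Lgals3*, the lectin galectin-3, was at 86.6, 99.5 and 273 against 723, 651 and 722, and *Lipa*, the lysosomal acid lipase that frees cholesterol and fatty acids from ingested lipid, at 42.1, 49.3 and 82 against 268, 223 and 259. Here too the third CLE value, that of mouse 11, was the highest of the CLE group. The macrophage elastase *Mmp12* was at 21.6, 41 and 205 and 526, 415 and 379 (-2.91, adjusted p = 0.0045), and its adjusted p was 0.056 among the 8 libraries lacking the letter R. Which cells of the tissue held the RNAs of this set, fallen or risen, was not tested. The 3 genes of the set that rose were *Fabp4*, *Apoe* and *Emp1*. Of these, *Apoe* was at 5341, 4723 and 4076 and 3279.9, 3008 and 2435 (0.70, SE 0.13, adjusted p = 0.002) and was under the fold limit without HFD mouse 18 (0.58). The 3 rises were 1 without CLE mouse 2, without HFD mouse 18 or with quantile normalization, which puts *Fabp4*, among the most abundant RNAs, at 0.00.

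**Figure D2:**
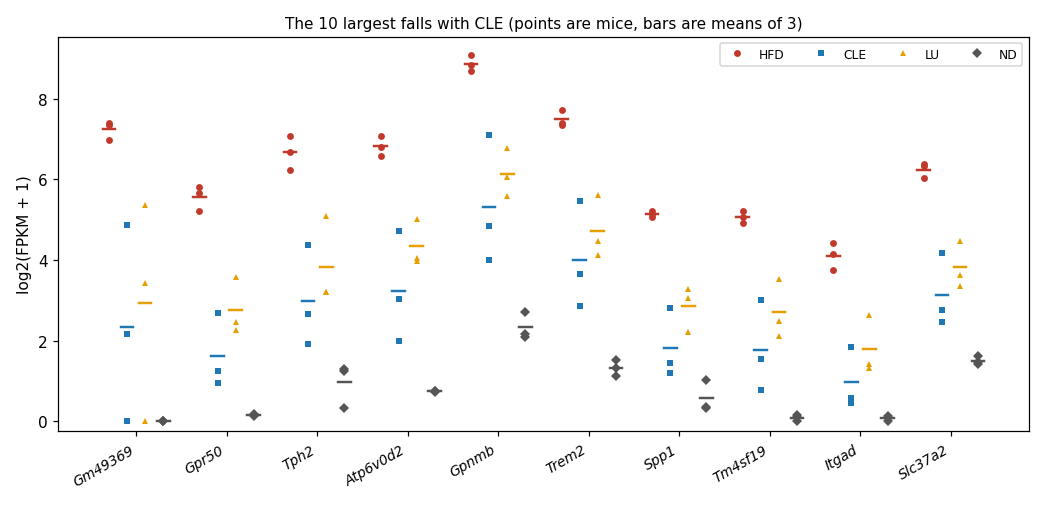
The 10 called genes with the largest falls, on the log2(FPKM + 1) scale, with each mouse as a point (HFD, CLE, LU and ND by colour and shape) and the mean of 3 as a bar. Genes were taken only if every HFD mouse lay above every CLE mouse, so that separation was set by the choice. The ND mice lie lowest in each gene.

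Among called genes whose mice did not overlap and whose HFD mean was at least 5 FPKM, the 10 largest falls were those of *Gm49369*, *Gpr50*, *Tph2*, *Atp6v0d2*, *Gpnmb*, *Trem2*, *Spp1*, *Tm4sf19*, *Itgad* and *Slc37a2*. *Atp6v0d2*, which like *Gpnmb*, *Trem2* and *Spp1* is on the lipid-associated macrophage list, encodes a subunit of the proton pump that acidifies lysosomes in macrophages and osteoclasts and was at 2.97, 7.13 and 25.2 in the CLE mice against 134, 94.3 and 111 (-3.58, SE 0.52, adjusted p = 0.00038). *Itgad*, the integrin CD11d of macrophages, was at 0.376, 0.5 and 2.6 against 16.9, 12.4 and 20.3. *Gpr50*, a receptor related to the melatonin receptors, was at 0.92, 1.37 and 5.48 against 49.5, 35.9 and 55.6 (-3.93, SE 0.42, adjusted p = 5.8e-05). For *Itgad* and *Gpr50*, as for all 10 genes, CLE mice under the lowest HFD mouse were a condition of the choice. *Slc37a2*, a sugar phosphate transporter of macrophages, was at 4.49, 5.74 and 17 against 79.1, 64.3 and 82.2, and *Tm4sf19*, a membrane protein with 4 spans, at 0.719, 1.93 and 7.05 against 32.3, 29 and 35.9. *Tph2*, the neuronal enzyme of serotonin synthesis, was at 5.34, 2.8 and 19.6 against 74, 135 and 102, but 100% of its value came from transcripts that the authors' assembly joined to the gene and not from annotated ones. *Gm49369*, which overlaps exons of *Ctsd* and *Ifitm10*, was at 3.46, 28.2 and 0.00831 in the CLE mice and 169, 125 and 161 in the HFD mice, and its adjusted p was 0.052 with a pseudocount of 0.1. Reads of overlapping genes cannot be told apart in an unstranded library. Of all called genes, the 5 with the widest range among the CLE mice were *Gpnmb*, *Mmp12*, *Gm49369*, *Atp6v0d2* and *Rgs1*, and in each but *Gm49369* it was mouse 11 that stood high. *Rgs1*, a regulator of chemokine receptor signals, was at 2.51, 3.6 and 23.6 against 62.9, 63.3 and 57.9.

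The medians of the other immune lists lay between -1.05 and 0.25. Of 20 tested genes of resident and repair-type macrophages, 8 fell and 1 rose, with a median of -0.28. These are 40% lower and 5% higher, beside 10.1% and 6.33% of all genes. *Folr2*, a folate receptor of resident macrophages, was at 40.6, 40.6 and 27.2 against 101, 94.8 and 90.5 (-1.40, SE 0.21, adjusted p = 0.00047), and *Mrc1*, the mannose receptor CD206, at 27.8, 29.8 and 24.1 against 60.8, 55.4 and 58 (-1.07, adjusted p = 0.00016). Neither gene overlapped between the groups, as in 99.5% of all genes called lower, and here mouse 11 was the CLE mouse farthest from the HFD mice. The scavenger receptor *Cd163* (0.31) and the hyaluronan receptor *Lyve1* (0.17) were not called. The 1 rise was *Retnla*, a secreted product of alternatively activated macrophages, at 740.5, 845 and 642 against 375, 457 and 316 (0.96, SE 0.24, adjusted p = 0.011). Of 17 genes of dendritic cells and antigen presentation on MHC class II, 8 fell (47.1%) and 2 rose (11.8%). Among the falls, *H2-DMb1*, which helps to load class II molecules, was at 17.3, 16.8 and 32.7 against 64.8, 70.1 and 62.6 and *Cd74*, the invariant chain, at 518, 551 and 719 against 1124, 1059 and 991. *H2-Aa*, a class II chain, fell as well (-0.91), and *Flt3*, the dendritic cell growth factor receptor, was not called (-0.33). The 2 rises were *Zbtb46*, a transcription factor of dendritic and endothelial cells, at 15.1, 21.9 and 22.6 against 11.4, 9.3 and 13, and *Fscn1* (0.59, adjusted p = 0.049). *Fscn1* lost the call without ND mouse 2, HFD mouse 12 or 15, CLE mouse 4 or 11 or any 1 LU mouse (adjusted p 0.056 to 0.165), and also with a pseudocount of 0.1, no filter, only the CLE and HFD groups, array weights, either treatment of the letter R or the most abundant transcript (0.051 to 0.296).

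Genes of T and NK cells were low. Of the 16 tested, 0 were called by limma, 3 had an unadjusted p under 0.05, all lower, and 2 were called lower without CLE mouse 11, while *Cd3e*, *Cd4*, *Cd8a*, *Foxp3* and *Ifng* were under the filter. Summed over 30 listed genes the level was 31.3 to 41.6 FPKM in the CLE mice and 41.7 to 52.1 in the HFD mice. Of 6 B cell genes, 1 was called: *Cd22*, an inhibitory receptor of B cells, at 1.16, 0.384 and 1.27 against 4.42, 3.55 and 5.17 (-1.49, SE 0.30, adjusted p = 0.0027). Of 10 genes of mast cells and granulocytes, 6 fell and 1 rose. The mast cell protease *Mcpt4* was at 0.92, 1.26 and 0.304 against 4.79, 3.95 and 2.87 and *S100a8*, an alarmin of neutrophils, at 16.9, 12.7 and 26 against 69.7, 115 and 118 (-2.40, SE 0.41, adjusted p = 0.0011). Its partner *S100a9* did not follow, at 1.17, 0.295 and 0.874 against 0, 0.471 and 0.671 (0.37, adjusted p = 0.32). The 1 rise, the protease *Mmp9* (0.70, adjusted p = 0.024), lost the call without HFD mouse 12 or 18 or CLE mouse 2 or 4 (adjusted p 0.063 to 0.093), and with a filter on a mean of 5 FPKM 2 of the 10 were tested and 1 was called. Of 22 chemokine genes, 10 fell and 0 rose, though *Cxcl9*, a chemokine induced by interferon gamma, was just under the fold limit (0.55, adjusted p = 0.028) and was called higher without HFD mouse 12, HFD mouse 15 or CLE mouse 2 and with quantile normalization (0.60 to 0.65). *Ccl2*, the ligand of CCR2 that recruits monocytes, was at 8.33, 5.01 and 15.1 against 33.4, 24.9 and 24.4 (-1.55, SE 0.34, adjusted p = 0.005), and *Ccl3*, another attractant of macrophages, at 0.157, 0.577 and 0.248 against 1.25, 1.44 and 1.49. *Cxcl12*, made by stromal cells, was at 71.6, 80.9 and 91.6 against 55, 65.4 and 74.8, with overlapping mice and no call (0.32, adjusted p = 0.124), though it was called when its most abundant transcript stood for the gene (1.29, adjusted p = 0.0014). *Ccl4* fell (-0.80), while *Ccl7*, *Cxcl1* and *Cxcl10* were not called, with log2 fold changes from -0.76 to 0.29, except *Ccl7* without ND mouse 2 (-0.76). With the filter on a mean of 5 FPKM, 10 chemokines were tested and 5 called. Of 24 interferon-stimulated genes, 0 rose and 1 fell, *Oas1a*, at 6.01, 6.97 and 11.6 against 18.3, 19.3 and 15.1, with 100% of its value from assembled transcripts. The antiviral genes *Isg15*, *Ifit1* and *Irf7* were not called, with log2 fold changes from 0.01 to 0.50. Called lower were 16.7% of B cell, 60% of mast cell and granulocyte, 45.5% of chemokine and 4.17% of interferon-stimulated genes. Called higher were 10% of mast cell and granulocyte genes. Over all genes 10.1% were called lower and 6.33% higher.

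The lysosome genes fell as a broad group. Lysosomes digest ingested and internal material with acid hydrolases, and the transcription factors TFEB, TFE3, MITF and TFEC bind the letters TCACGTGA before many of their genes. Of 57 tested genes of lysosomal hydrolases and membrane proteins, 32 fell and 0 rose, with a median of -0.63, beside 10.1% of all genes called lower. The CLE mice lay below all HFD mice in 47 of the 57, beside 26.2% of all genes tested. Among the proteases, *Ctss*, cathepsin S of antigen-presenting cells, was at 53.8, 75.2 and 159 against 504, 417 and 387 (-2.31, SE 0.31, adjusted p = 0.00024). *Ctsb*, a cathepsin found in most cells, was at 491, 485 and 628 against 1230.4, 1103 and 1174 (-1.14, SE 0.14, adjusted p = 0.00013). Cathepsin S thus fell more than cathepsin B in each of the 3 CLE mice. *Psap*, the precursor of proteins that help to degrade sphingolipids, was at 1026, 1059 and 1454 against 2753, 2501 and 2694, and *Gla*, an enzyme that trims glycolipids, at 2.44, 2.99 and 4.67 against 16.1, 12.1 and 15.6 (-1.86, SE 0.23, adjusted p = 0.00015). Of further members named for their role, *Ctsz* (-1.02) and *Lamp1* (-0.61, but -0.56 without CLE mouse 4) fell. The highest fold change of the list was that of *Arsa*, a sulfatase, at 21.3, 24.9 and 25.4 against 20.5, 20.5 and 22.3 (0.17, adjusted p = 0.192). Of the 4 transcription factor genes, *Tfeb* was at 5.53, 5.55 and 7.48 against 13.9, 12.9 and 13.7 (-1.02, SE 0.14, adjusted p = 0.00029) and *Mitf* at 6.86, 7.52 and 7.09 against 18.2, 13.8 and 12.9 (-0.96, adjusted p = 0.00074), though *Mitf* lost the call when its most abundant transcript stood for the gene (-0.37, adjusted p = 0.383). *Tfec* (-0.58, adjusted p = 0.00068) was just under the fold limit and passed it without HFD mouse 12 (-0.61), HFD mouse 15 (-0.61) or CLE mouse 4 (-0.63), and *Tfe3* was not called (-0.27, adjusted p = 0.126).

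The letters TCACGTGA, which read the same on both strands, were searched in the 250 bases before each RefSeq start (GRCm38.p6). They were present in 0.785% of all 32851 promoters. A gene was counted as holding the letters if any of its starts did, so shares of genes and of promoters are not in like units. Of the 57 lysosomal genes 44 were matched, and 6 of them held the letters, namely 5 of the 24 matched genes that fell (*Gla*, *Atp6v1a*, *Cln3*, *Ctsa* and *Ctsd*) and 1 of the 20 others (*Mcoln1*, a lysosomal ion channel, -0.04). The stretches are shown because they are the known binding letters of these factors beside genes that fell, with the letters in capitals and 11 bases on either side where the window allows.
Gla (chrX:134601215-134601244, minus strand): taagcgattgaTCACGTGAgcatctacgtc
Gla (chrX:134601182-134601211, minus strand): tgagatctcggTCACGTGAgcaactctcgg
Atp6v1a (chr16:44139373-44139402, minus strand): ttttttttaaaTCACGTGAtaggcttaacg
Cln3 (chr7:126583340-126583369, minus strand): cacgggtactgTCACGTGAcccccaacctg
Ctsa (chr2:164833749-164833772, plus strand): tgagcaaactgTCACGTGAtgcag
Ctsd (chr7:142387908-142387937, minus strand): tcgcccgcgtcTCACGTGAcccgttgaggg
Mcoln1 (chr8:3500462-3500491, plus strand): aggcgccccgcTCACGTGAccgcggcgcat
Such a match is a description of the letters and no measure of binding. *Atp6v1a*, the catalytic subunit of the proton pump, was at 44.5, 41.3 and 55.2 against 123, 102 and 109 (-1.24, SE 0.12, adjusted p = 3.9e-05). *Cln3*, a lysosome membrane protein, was at 11.5, 13.3 and 12.1 against 23.7, 22.2 and 25.5 and *Ctsa*, protective cathepsin A, at 92.3, 104 and 124 against 233, 202 and 236. *Ctsd*, the aspartic protease cathepsin D, was at 927, 871 and 1066 against 1904, 1744 and 1728 (-0.91, SE 0.20, adjusted p = 0.0043) and shares exons with *Gm49369*. The CLE and HFD mice did not overlap in any of the 5 genes that fell, as in 99.5% of all genes called lower.

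Every tested gene of the cell cycle list fell: 29 of 29, with a median of -0.95 and a range of -1.35 to -0.59, beside 10.1% of all genes called lower. In 28 of the 29 every CLE mouse lay below every HFD mouse, beside 26.2% of all genes tested. The listed genes serve DNA replication and mitosis and were low in all mice. *Mki67*, a standard marker of dividing cells, was at 1.92, 1.52 and 2.25 against 4.8, 5.88 and 6.29 (-1.20, SE 0.15, adjusted p = 0.00015). *Top2a*, a topoisomerase that untangles chromosomes, was at 2.35, 2.03 and 3.59 against 6.62, 8.48 and 9.14 (-1.32, SE 0.19, adjusted p = 0.00036). The most abundant, *Pcna*, the sliding clamp of DNA polymerase, was at 26.4, 27.5 and 36.9 against 68.6, 67 and 67.8 (-1.15, SE 0.12, adjusted p = 5e-05). The cyclins *Ccnb1* (-1.26) and *Ccna2* (-1.01) fell alike. Of the 29 genes, 5 had a mean of at least 5 FPKM over the 12 libraries, and those 5 were called lower under that filter. The cells that held these RNAs are not known from bulk tissue.

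The upstream windows of 3 cell cycle genes are shown as examples. They hold both letter groups known from mitotic promoters, CCAAT, read by the factor NF-Y, and TTTGAA, the cell cycle homology region. Both were searched on either strand, and matches are in capitals. CCAAT on either strand occurred in 33.8% of all promoters and in 21 of the 25 cell cycle genes that were matched, and TTTGAA in 16% of all promoters and in 9 of the 25. Each of those 9 genes also held CCAAT, in the same or another of its windows. Here too a gene with several starts had more chances of a match than a single promoter, so the shares are not in like units.
Top2a (chr11:99024190-99024439, minus strand): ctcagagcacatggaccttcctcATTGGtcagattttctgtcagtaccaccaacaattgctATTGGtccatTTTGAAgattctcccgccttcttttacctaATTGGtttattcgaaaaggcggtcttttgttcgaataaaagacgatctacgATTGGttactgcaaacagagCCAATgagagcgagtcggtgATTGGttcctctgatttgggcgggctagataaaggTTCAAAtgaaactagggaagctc
Ccnb2 (chr9:70421555-70421804, minus strand): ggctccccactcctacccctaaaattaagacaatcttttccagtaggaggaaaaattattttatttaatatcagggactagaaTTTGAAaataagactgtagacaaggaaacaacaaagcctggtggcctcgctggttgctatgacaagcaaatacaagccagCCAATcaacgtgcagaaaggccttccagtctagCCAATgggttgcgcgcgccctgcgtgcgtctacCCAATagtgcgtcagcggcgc
Mki67 (chr7:135716380-135716629, minus strand): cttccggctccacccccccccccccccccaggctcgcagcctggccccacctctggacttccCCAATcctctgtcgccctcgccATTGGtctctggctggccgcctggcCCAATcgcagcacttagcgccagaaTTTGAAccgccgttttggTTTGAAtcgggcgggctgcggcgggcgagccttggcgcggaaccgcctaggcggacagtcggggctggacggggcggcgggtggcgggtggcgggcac
*Ccnb2*, cyclin B2, was at 1.78, 1.18 and 1.88 in the CLE mice against 2.81, 4.13 and 5.14 in the HFD mice (-0.93, SE 0.23, adjusted p = 0.01).

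Collagens and matrix genes fell for the most part. Of 39 tested, 23 fell (59%) and 3 rose (7.69%), with a median of -0.78, beside 10.1% and 6.33% of all genes. *Col3a1* and *Col1a1*, the main fibrillar collagens, were at 286, 182 and 305 against 697, 789 and 832 (-1.61, SE 0.21, adjusted p = 0.00016) and 65.9, 54.3 and 81.4 against 173, 181 and 209.5 (-1.48, SE 0.17, adjusted p = 7.4e-05). *Lum*, the proteoglycan lumican that orders collagen fibrils, fell from 106, 102 and 98.1 to 33.7, 26.5 and 29.7 (-1.74, SE 0.12, adjusted p = 1.7e-05), a narrow spread in both groups. *Timp1*, an inhibitor of matrix metalloproteases, had the largest fall, at 2.21, 1.65 and 3.04 against 15.4, 16 and 13.5 (-2.29, SE 0.25, adjusted p = 6.5e-05). *Timp3*, an inhibitor of the same family that is bound to the matrix, moved the other way, at 129.6, 202 and 175 against 71.8, 54.7 and 76.5 (1.30, SE 0.24, adjusted p = 0.0018). *Eln*, the elastin of vessel walls, also rose, at 73.6, 91.1 and 82.7 against 37.6, 42 and 43.8 (0.98, SE 0.22, adjusted p = 0.0051). The third rise, *Thbs1* (1.04), lost the call without HFD mouse 15 or 18, CLE mouse 2, 4 or 11 or LU mouse 2 (adjusted p 0.051 to 0.125), and also with no filter or either treatment of the letter R (0.053 to 0.081). *Col6a3* (-0.95) and *Mmp2* (-1.35) fell, and *Lox*, the enzyme that cross-links collagen, was not called (-0.13, adjusted p = 0.654). Of 20 genes of adipose progenitors, the fibroblast-like cells that form adipocytes, 1 rose (*Ebf2*) and 2 fell (*Clec11a*, -0.73, and *Thy1*, -0.64, which lost the call without HFD mouse 15, HFD mouse 18 or CLE mouse 11 at an adjusted p of 0.06, 0.064 and 0.051). *Pdgfra*, the common marker of progenitors, was at 16, 17.2 and 9.3 against 21.9, 17.7 and 17.1, and like *Cd34*, *Dpp4* and *Pi16* was not called, with log2 fold changes from -0.61 to -0.29. Of the progenitor genes 5% were called higher and 10% lower, beside 6.33% and 10.1% of all genes.

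**Figure D3:**
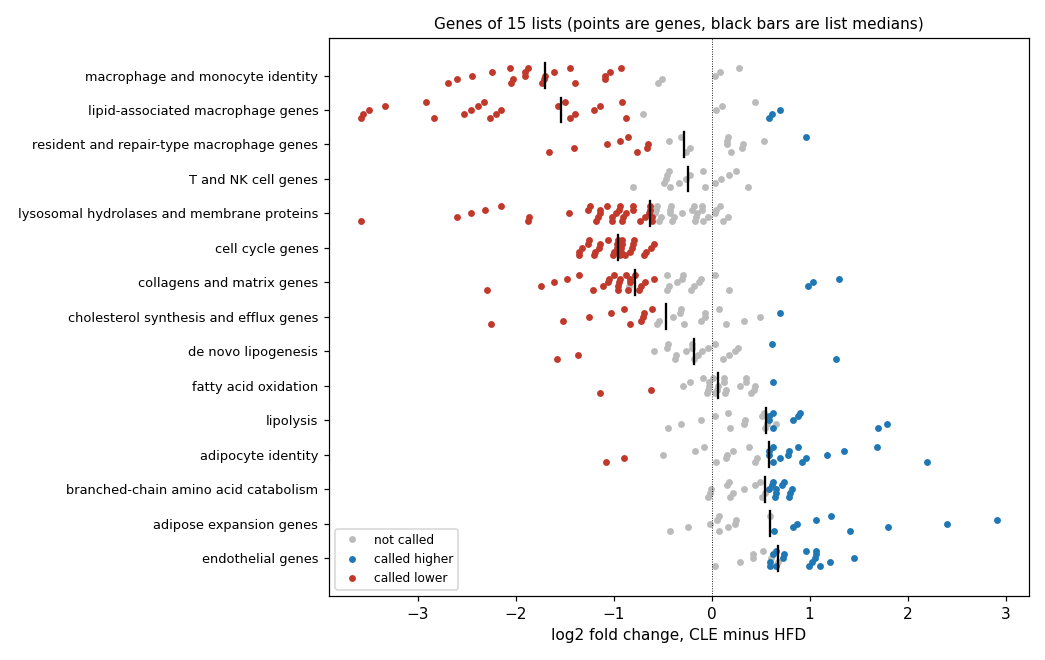
Genes of 15 lists by log2 fold change, CLE minus HFD (horizontal axis), each point a gene, in blue if called higher, in red if called lower and in grey otherwise, with the list median as a black bar. All 29 cell cycle genes and 32 of 57 lysosomal genes are red, while 16 of 23 endothelial genes are blue.

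Genes of the mature adipocyte moved the other way. Of 26 adipocyte identity genes, 14 rose and 2 fell, with a median of 0.59, beside 6.33% of all genes called higher. The 26 genes summed to 43998 to 50774 FPKM in the CLE mice and 28874 to 32052 in the HFD mice. *Cfd*, the serine protease adipsin that adipocytes secrete, was at 2190.4, 2466 and 1550.4 against 425, 532 and 383 (2.20, SE 0.23, adjusted p = 4.9e-05). *Adipoq*, the hormone adiponectin, was at 2011, 2156 and 1633 against 1231, 1220.4 and 1107 (0.70, SE 0.12, adjusted p = 0.0014). *Retn*, which encodes resistin in mouse adipocytes, rose from 219, 326 and 217 to 897, 851 and 695 (1.69, SE 0.22, adjusted p = 0.00019). *Cidec*, a lipid droplet protein that makes large droplets, was at 3785, 3288 and 2912 against 1846, 2186 and 1739 (0.79, SE 0.12, adjusted p = 0.00056), and *Car3*, a carbonic anhydrase abundant in fat, at 10774, 8649 and 8247 against 3687, 3862 and 3270.2. The master regulator *Pparg* was at 93.2, 88.3 and 90.2 against 63.3, 69.3 and 66.6, with every CLE mouse higher, as in 24.4% of all genes tested. Its fold of 1.36 was under the limit (0.44, SE 0.13, adjusted p = 0.024), as was that of *Cebpa*, its partner (0.46, adjusted p = 0.016). *Fabp4* (0.59, adjusted p = 0.001) and *Lipe*, hormone-sensitive lipase (0.59, adjusted p = 0.00064), passed the fold limit narrowly and fell under it without HFD mouse 12 (0.55 and 0.56), HFD mouse 18 (0.57 and 0.56) or CLE mouse 2 (0.57 and 0.51), while *Plin1*, the coat protein of the lipid droplet, rose by 0.63 and by 0.50 without CLE mouse 2. The 2 that fell were *Lep*, the satiety hormone leptin, at 497, 586 and 697 against 1172, 1271 and 1291 (-1.08, SE 0.23, adjusted p = 0.0039), and *Gpd1*, which makes the glycerol backbone of triglyceride and lost the call without HFD mouse 15, HFD mouse 18 or CLE mouse 4 (adjusted p 0.066, 0.055 and 0.058).

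Of 22 lipolysis genes, 9 rose (40.9%) and 0 fell, with a median of 0.56, beside 6.33% of all genes called higher and 10.1% lower. *Adrb3*, the β3-adrenergic receptor that starts lipolysis, was at 438, 241 and 344 against 82.4, 127 and 82.3 (1.79, SE 0.29, adjusted p = 0.00076). *Pnpla2*, adipose triglyceride lipase, was at 1539.6, 1504 and 1191 against 809, 771 and 704 (0.88, SE 0.14, adjusted p = 0.00077), and *G0s2*, the inhibitor of that lipase, at 383, 415 and 349 against 209, 238 and 198 (0.83, SE 0.12, adjusted p = 0.0004). The lipase and its inhibitor both rose. *Ces1d*, a carboxylesterase of the lipid droplet, was at 1435, 1871 and 1039 against 515, 435 and 362 (1.70, SE 0.22, adjusted p = 0.00016). *Abhd5*, the activator of the lipase, and *Mgll*, the last lipase of the chain, were not called (0.34 and 0.19).

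De novo lipogenesis, the making of fatty acids from acetyl units, had 2 rises and 2 falls among 21 genes. These are 9.52% in each direction, beside 6.33% called higher and 10.1% called lower over all genes. *Scd1* is not on this list. *Acacb*, acetyl-CoA carboxylase 2 at the mitochondrion, was at 44.9, 52.9 and 35.6 against 20.9, 17.1 and 15.4 (1.27, SE 0.26, adjusted p = 0.0033). *Insig1*, which holds back SREBP processing, fell from 141, 253 and 180.2 to 77.2, 47.2 and 103 (-1.36, adjusted p = 0.0066), with an adjusted p of 0.071 among libraries lacking the letter R. *Acaca*, acetyl-CoA carboxylase 1 (0.62), lost the call without HFD mouse 12 or 18 or CLE mouse 2 or 4 (adjusted p 0.066 to 0.123), and *Scd2*, a desaturase (-1.58), without HFD mouse 15 or 18 or CLE mouse 2 or 4 (0.053 to 0.101). The fatty acid synthase *Fasn*, *Acly*, *Elovl6* and the regulators *Srebf1* and *Mlxipl* were not called, with log2 fold changes from -0.44 to 0.24. Of 24 genes of fatty acid uptake and triglyceride synthesis, 5 rose (20.8%) and 2 fell (8.33%). *Pck1*, which supplies glycerol for re-esterification of fatty acids, was at 2123, 2009.5 and 1217 against 483, 429 and 442 (1.94, SE 0.18, adjusted p = 3.2e-05), and *Gpihbp1*, which holds lipoprotein lipase on capillaries, at 117, 193 and 175 against 67, 65.7 and 87.4 (1.11, SE 0.18, adjusted p = 0.00086). The fatty acid transporter *Cd36* was at 2129.5, 2281 and 2170.3 against 2133, 2069 and 2162 and overlapped between the groups. With *Lpl*, *Dgat2*, *Gpam* and *Fabp5* it was not called, with log2 fold changes from -0.70 to 0.55, though *Gpam* was called without HFD mouse 15 or CLE mouse 11 (0.67 in each) and *Fabp5* without any 1 ND mouse or CLE mouse 11 (-0.70 to -0.88). The 5 rises were 3 without HFD mouse 12, HFD mouse 18, CLE mouse 2 or CLE mouse 4, and the 2 falls were 5 without CLE mouse 11, 1 without HFD mouse 18 or CLE mouse 4 and 0 without the letter R libraries. Of 24 fatty acid oxidation genes, 1 rose (*Eci1*, an isomerase of unsaturated fatty acids, 0.63) and 2 fell: *Cpt1a*, the carnitine transferase that admits fatty acids into mitochondria, at 48.2, 44.5 and 51.6 against 76.4, 70.6 and 76.2 (-0.62, adjusted p = 0.0016), and *Cpt1b*, its muscle form, at 0.36, 0.37 and 2.09 against 3.45, 2.18 and 3.35 (-1.14). The nuclear receptor *Ppara*, its coactivator *Ppargc1b* and the enzymes *Acadl* and *Cpt2* were not called, with log2 fold changes from -0.03 to 0.29. Without HFD mouse 18 or CLE mouse 2, *Eci1* was under the fold limit (0.57 and 0.55), and so was *Cpt1a* without CLE mouse 4 (-0.57). Without the letter R libraries neither fall was called. Of the oxidation genes 4.17% were called higher and 8.33% lower, beside 6.33% and 10.1% of all genes.

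Thermogenesis genes did not move one way. Of 16 tested, 2 rose (*Adrb3* and *Ebf2*) and 4 fell. These are 12.5% higher and 25% lower, beside 6.33% and 10.1% of all genes. *Ckb*, a creatine kinase, was at 27.4, 30.5 and 43.8 against 109.7, 89.1 and 98.5 (-1.54, SE 0.20, adjusted p = 0.00017), and *Gatm*, the first enzyme of creatine synthesis, at 5.47, 5.25 and 6.14 against 15.4, 14 and 17 (-1.31, SE 0.11, adjusted p = 2.4e-05). *Otop1*, a proton channel, was at 0.594, 0.431 and 1.85 against 4.57, 4.28 and 4.42. *Ucp1*, the uncoupling protein of brown fat, was under the filter, at 0.254, 0.12 and 0.134 in the CLE mice and 0, 0.0296 and 0 in the HFD mice. *Cidea*, *Cox8b*, *Ppargc1a* and *Prdm16*, other genes of brown and beige fat, were not called, with log2 fold changes from -0.00 to 0.23. *Ebf2* (0.59), a transcription factor of precursors, lost the call without any 1 HFD mouse or CLE mouse 2 or 4 (adjusted p 0.078 to 0.134).

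Genes of insulin action rose in 7 of 30 cases and fell in 2. The insulin receptor *Insr* was at 41.8, 41.3 and 33.4 against 22.3, 23.3 and 23 (0.73, SE 0.11, adjusted p = 0.00061) and *Irs2*, its docking protein, at 69.7, 54.4 and 51.4 against 31.2, 29.7 and 29.2 (0.93, SE 0.16, adjusted p = 0.0011). *Grb10*, an imprinted inhibitor of the same receptor, rose as well, at 34.6, 36.9 and 23.6 against 13, 15.3 and 14.8 (1.07, adjusted p = 0.0034). The 2 falls were *Ptpn1*, the phosphatase PTP1B that switches the receptor off, at 15.7, 19.7 and 23.9 against 36.1, 34.4 and 36.6 (-0.84, adjusted p = 0.00081), and *Enpp1*, a membrane inhibitor of the receptor, at 0.795, 0.776 and 0.717 against 2.96, 2.39 and 2.66 (-1.06, adjusted p = 2e-05). The rises thus held the receptor and an inhibitor of it, and both falls were inhibitors. Of the list 23.3% were called higher and 6.67% lower, beside 6.33% and 10.1% of all genes. Falls were therefore no more frequent in this list than over all genes. The glucose transporter *Slc2a4* was at 55.2, 43.1 and 47.7 against 40, 45.8 and 38.9, and like *Irs1* and *Tbc1d4* was not called, with log2 fold changes from 0.16 to 0.49. *Akt2*, a kinase of the same pathway, rose by 0.61 and was under the fold limit without HFD mouse 18 (0.57) or CLE mouse 2 (0.51). Without CLE mouse 2 the 7 rises were 4.

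Of 25 adipokines and their receptors, 9 rose (36%) and 7 fell (28%), beside 6.33% and 10.1% of all genes. Besides *Cfd*, *Retn* and *Adipoq*, *Nrg4*, a secreted relative of the epidermal growth factors, was at 93.2, 65.8 and 53 against 23.4, 24.9 and 19.6 (1.57, SE 0.20, adjusted p = 0.00018) and *Rbp4*, a retinol carrier, at 444, 389.6 and 328 against 153, 234 and 143 (1.15, SE 0.23, adjusted p = 0.0029). *Metrnl*, a secreted protein of fat and macrophages, was at 11.8, 11.8 and 18.7 against 51, 43.4 and 42 (-1.64, SE 0.16, adjusted p = 4e-05). *Gdf15*, a stress hormone, fell from 4.75, 4.46 and 4.8 to 1.14, 0.858 and 3.35, with CLE mouse 11 nearest to the HFD mice. *Vegfa*, the growth factor of vessels, was at 208, 218 and 220.2 against 115, 124 and 130.4 (0.81, SE 0.15, adjusted p = 0.0015). The adiponectin receptor *Adipor2* (0.85) and the peptide *Apln* (1.22, with an adjusted p of 0.05 to 0.058 without HFD mouse 12, HFD mouse 15 or CLE mouse 11) rose.

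Catabolism of the branched-chain amino acids leucine, isoleucine and valine takes place in fat mitochondria. Of 23 tested genes, 11 rose and 0 fell, with a median of 0.55, beside 6.33% of all genes called higher. The CLE mice lay above all HFD mice in 19 of the 23, beside 24.4% of all genes tested. *Bckdhb*, a subunit of the dehydrogenase that commits the pathway, was at 96.4, 94.4 and 92 against 54.1, 57 and 51.6 (0.79, SE 0.07, adjusted p = 3e-05), and *Ivd*, a later step of leucine breakdown, at 143, 145 and 107 against 74.4, 77.3 and 69.3 (0.82, SE 0.13, adjusted p = 0.00079). *Pccb*, a subunit of the carboxylase for propionyl-CoA, was at 252, 223 and 185 against 133, 121 and 121. *Bckdha* (0.72) and *Mccc1* (0.63, but 0.58 without HFD mouse 18 and 0.51 without CLE mouse 2) rose too, and *Bcat2*, the transaminase of the first step, was not called (-0.04). Without CLE mouse 2 the 11 rises were 6.

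Of 19 tested genes linked to adipose expansion, many of them imprinted, 9 rose (47.4%) and 0 fell, beside 6.33% of all genes called higher. *Fam13a*, a gene tied to fat distribution, was at 95.3, 91.2 and 32.3 in the CLE mice against 7.86, 8.45 and 7.25, with CLE mouse 11 far under the other CLE mice. *Mycl*, a transcription factor of the MYC family, was at 22.5, 16.3 and 14.4 against 2.33, 2.25 and 2.9 (2.40, SE 0.32, adjusted p = 0.00021). The imprinted zinc finger genes *Peg3* and *Zim1*, neighbours on chromosome 7, were at 197, 278 and 153 against 81.6, 71.6 and 74.3 (1.41, SE 0.21, adjusted p = 0.00039) and 11, 23.3 and 9.98 against 3.42, 2.67 and 3.71 (1.80, SE 0.34, adjusted p = 0.0021). CLE mouse 4 was the highest in both. *Nnat*, an imprinted membrane protein, was at 1116, 1034 and 995 against 459, 459 and 431 (1.22, SE 0.10, adjusted p = 2e-05). *Mest*, *Sfrp5* and *Bmp3*, which are known to vary with fat mass, were not called, with log2 fold changes from -0.24 to 0.06.

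**Figure D4:**
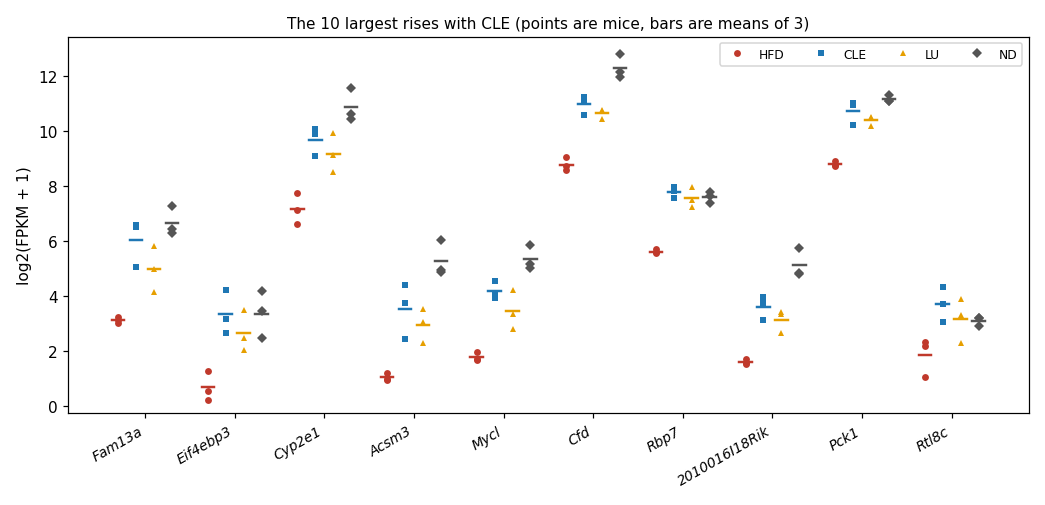
The 10 called genes with the largest rises, on the log2(FPKM + 1) scale, with each mouse as a point (HFD, CLE, LU and ND by colour and shape) and the mean of 3 as a bar. Genes were taken only if every CLE mouse lay above every HFD mouse, so that separation was set by the choice. CLE mouse 11 is the lowest of its group in 8 of the 10 genes.

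The other genes among the 10 largest rises were *Eif4ebp3*, *Cyp2e1*, *Acsm3*, *Rbp7*, *2010016I18Rik* and *Rtl8c*, beside *Fam13a*, *Mycl*, *Cfd* and *Pck1*. *Rbp7*, a retinol-binding protein of fat endothelium and adipocytes, was at 190.2, 252 and 228 against 46.7, 51.2 and 47.4 (2.17, SE 0.17, adjusted p = 2e-05), the smallest SE of the 10. *Acsm3*, a mitochondrial ligase of medium-chain fatty acids, was at 20.2, 12.5 and 4.48 against 1.29, 0.954 and 1 and shares exons with *Eri2*. *Eif4ebp3*, a repressor of translation initiation, was at 8.11, 18 and 5.34 against 1.44, 0.164 and 0.462 and overlaps a second gene model. The spread inside both groups was wide for *Eif4ebp3*. *Rtl8c*, a gene derived from a retrotransposon, was at 19.4, 7.31 and 12.3 against 1.09, 4.11 and 3.56 and *2010016I18Rik*, a noncoding transcript that overlaps *Dennd2d*, at 12.4, 14.7 and 7.85 against 2.3, 2 and 1.91. *Cyp2e1*, an enzyme that oxidizes ethanol and acetone, was at 1081, 956 and 549 against 139.9, 217 and 99.4, with 98.5% of the value from assembled transcripts.

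Vessel genes rose. Of 23 endothelial genes, 16 rose and 0 fell, with a median of 0.68, and 4 of 10 genes of pericytes and smooth muscle rose (median 0.53). These are 69.6% and 40% called higher, beside 6.33% of all genes. *Sox18*, a transcription factor of endothelium, was at 35.8, 36.6 and 41.1 against 12.6, 10.9 and 16.8 (1.45, SE 0.18, adjusted p = 0.00012). *Cldn5*, a tight junction protein, was at 127, 128 and 177 against 58.7, 60.8 and 86.1 (1.06, SE 0.20, adjusted p = 0.0017). *Kdr*, the main receptor for VEGF, was at 51.6, 76.4 and 77.1 against 23.7, 28.2 and 46.4 (1.07, SE 0.25, adjusted p = 0.0074). HFD mouse 18 was the highest HFD mouse in each of these, and its list median was 0.32 above the HFD mean. *Pecam1*, the surface protein CD31, overlapped between the groups, at 81.2, 117 and 115 against 57.2, 68.4 and 92.8 (0.52, adjusted p = 0.087), and was called without HFD mouse 18 (0.71) or CLE mouse 2 (0.69). *Emcn*, a sialoprotein of endothelium, rose (0.66) but lost the call without HFD mouse 12 or 15 or CLE mouse 4 or 11 (adjusted p 0.051 to 0.09), and *Cdh5*, the cadherin of endothelial junctions, was not called (0.61, adjusted p = 0.065) except without ND mouse 3 (0.61), HFD mouse 18 (0.85) or CLE mouse 2 (0.78). Of mural cell genes, *Acta2*, smooth muscle actin, rose (0.88, with an adjusted p of 0.065 without HFD mouse 18 and 0.05 without CLE mouse 4) and *Rgs5*, a pericyte marker, was not called (0.20). Without HFD mouse 12, HFD mouse 15, CLE mouse 4 or CLE mouse 11 the 16 endothelial rises were 9, and the 4 pericyte and smooth muscle rises were 1 without CLE mouse 4 and 2 without HFD mouse 12 or 15.

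Markers of other tissues were low. The liver list summed to 11.5 to 39.8 FPKM in the CLE mice and 7.18 to 19.3 in the HFD mice over 17 genes, of which 10 were tested, 2 rose (*Alb* and *Serpina1c*) and 1 fell (*Hpx*). *Alb*, serum albumin, was at 13.5, 5.26 and 9.04 against 4.71, 2.13 and 0.973 (1.56, SE 0.37, adjusted p = 0.0069), and *Apoa2*, a liver apolipoprotein, at 9.23, 0.676 and 4.7 against 4.56, 0.841 and 0.497, high in CLE mice 2 and 11 and HFD mouse 12. The 2 rises were 1 without HFD mouse 15, HFD mouse 18, CLE mouse 2 or LU mouse 3 and 5 without the letter R libraries, and the fall was lost without HFD mouse 18 or CLE mouse 4. Of 13 mesothelial genes, the lining of the fat pad, 3 rose (*Lrrn4*, *Cldn15* and *Bcam*), of which *Lrrn4* lost the call without HFD mouse 15, HFD mouse 18 or CLE mouse 2 (adjusted p 0.07 to 0.093). *Upk3b*, one of its markers, was at 4.66, 2.62 and 2.44 against 2.06, 0.488 and 0.0549 (1.29, SE 0.74, adjusted p = 0.201), a wide spread, and *Msln* (0.68) and *Wt1* (-0.27) were not called. Of 3 tested skeletal muscle genes, 1 fell, *Pvalb*, a calcium buffer, at 0.63, 0.474 and 4.14 against 6.82, 6.44 and 5.79 (adjusted p 0.054 without the letter R libraries), and the list summed to 19.1 to 53 FPKM in the CLE mice and 20 to 31 in the HFD mice. Called higher and lower were 20% and 10% of the liver list, 23.1% and 0% of the mesothelial and 0% and 33.3% of the muscle list. Over all genes these shares were 6.33% and 10.1%. The part of other tissues in the changes above was not tested.

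Genes of xenobiotic response, sterols, stress and the clock gave smaller groups of calls. Of 11 tested genes of the xenobiotic receptors AhR, CAR and PXR, 6 rose (54.5%) and 0 fell, beside 6.33% of all genes called higher. *Sult1a1*, a sulfotransferase that conjugates phenols, was at 83.4, 106 and 77.4 against 43.6, 53 and 43.5 (0.91, SE 0.13, adjusted p = 0.00029), and *Por*, the electron donor of cytochromes P450, at 334, 318 and 209.5 against 171, 165 and 175. The AhR target *Cyp1b1* was at 18.3, 19.6 and 10.7 against 20.5, 18.6 and 18.4 and not called (-0.27, adjusted p = 0.478), *Tiparp* was not called either (0.15), and *Cyp1a1* and *Cyp2b10*, the classic targets of AhR and CAR, were under the filter. Of 21 NRF2 targets, the antioxidant genes, 2 rose and 2 fell: the glutathione transferases *Gsta3* (1.43, adjusted p = 0.00084) and *Gsta4* (1.76, adjusted p = 0.00012) rose, and *Hmox1*, heme oxygenase 1, fell from 65.8, 55.2 and 53.8 to 18.1, 21.8 and 27.4 (-1.35, SE 0.13, adjusted p = 3.6e-05) together with *Srxn1* (-0.77, adjusted p = 0.00098), which repairs peroxiredoxins. *Nqo1*, *Gclc* and *Gclm* were not called, with log2 fold changes from -0.36 to 0.34. Of the NRF2 targets 9.52% were called in each direction, beside 6.33% higher and 10.1% lower over all genes.

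Of 24 genes of cholesterol synthesis and efflux, 10 fell and 1 rose (*Apoe*), with a median of -0.46. These are 41.7% lower and 4.17% higher, beside 10.1% and 6.33% of all genes. *Soat1*, which esterifies cholesterol in macrophages and other cells, was at 7.08, 7.3 and 15.6 against 56.1, 44 and 45.5 (-2.25, SE 0.24, adjusted p = 5.8e-05). *Dhcr7*, the last step of cholesterol synthesis, was at 4.75, 4.14 and 10.9 against 15.6, 21.6 and 21.1 (-1.52, SE 0.27, adjusted p = 0.0012). *Sqle*, an early sterol enzyme, fell (-0.72), and the efflux pump *Abca1* was not called (-0.07). Of 27 stress response genes, 5 rose (18.5%) and 4 fell (14.8%). *Atf3*, a transcription factor induced by stress in many cells including macrophages, was at 4.23, 4.81 and 22.2 against 80.1, 64.5 and 68.5 (-3.01, SE 0.44, adjusted p = 0.0004), and *Sesn2*, a sensor of leucine that ATF4 induces, at 50.1, 45 and 33.3 against 19.9, 21.2 and 16.3 (1.11, SE 0.22, adjusted p = 0.003). *Ddit3*, the factor CHOP, fell (-0.66, but -0.51 without CLE mouse 2), *Trib3*, its target, rose (0.78, with an adjusted p of 0.052 without HFD mouse 15 and 0.054 without CLE mouse 2), and the chaperone *Hspa5* was not called (-0.55) except without HFD mouse 18 (-0.63) or CLE mouse 11 (-0.70). The 5 rises were 2 without HFD mouse 15 or without CLE mouse 4. Of 19 clock genes, 5 rose (26.3%) and 1 fell (5.26%). *Nr1d1*, the repressor REV-ERBα, was at 61.1, 66.7 and 44.3 against 24.1, 15.3 and 22.1 (1.44, SE 0.24, adjusted p = 0.00079) and shares exons with *Thra*. *Arntl*, *Per1* and *Dbp* were not called, with log2 fold changes from -0.24 to 0.41, and the 5 rises were 3 without HFD mouse 15 and 2 without CLE mouse 4. The labels give no hour of death.

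Of 34 growth factor signalling genes, 6 rose and 6 fell. These are 17.6% in each direction, beside 6.33% called higher and 10.1% called lower over all genes. *Fgf10*, a growth factor of adipocyte precursors, was at 30.1, 20.3 and 19.4 against 7.91, 8.74 and 7.95 (1.37, SE 0.18, adjusted p = 0.00021) and *Wnt11*, a secreted ligand, at 8.41, 11.7 and 7 against 4.68, 4.84 and 2.96 (0.96, adjusted p = 0.0022). *Tgfb1* and *Tgfbr1*, the fibrosis factor TGF-β1 and its receptor, were at 14.9, 15.8 and 23.2 against 35.6, 31.6 and 36.1 (-0.93, adjusted p = 0.00067) and 12.3, 13.8 and 14.1 against 34.9, 25.6 and 25 (-1.02, adjusted p = 0.00023). Ligand and receptor were both lower in every CLE mouse than in any HFD mouse, as were 26.2% of all genes tested and 99.5% of those called lower. *Igf1* was not called (-0.42).

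**Figure D5:**
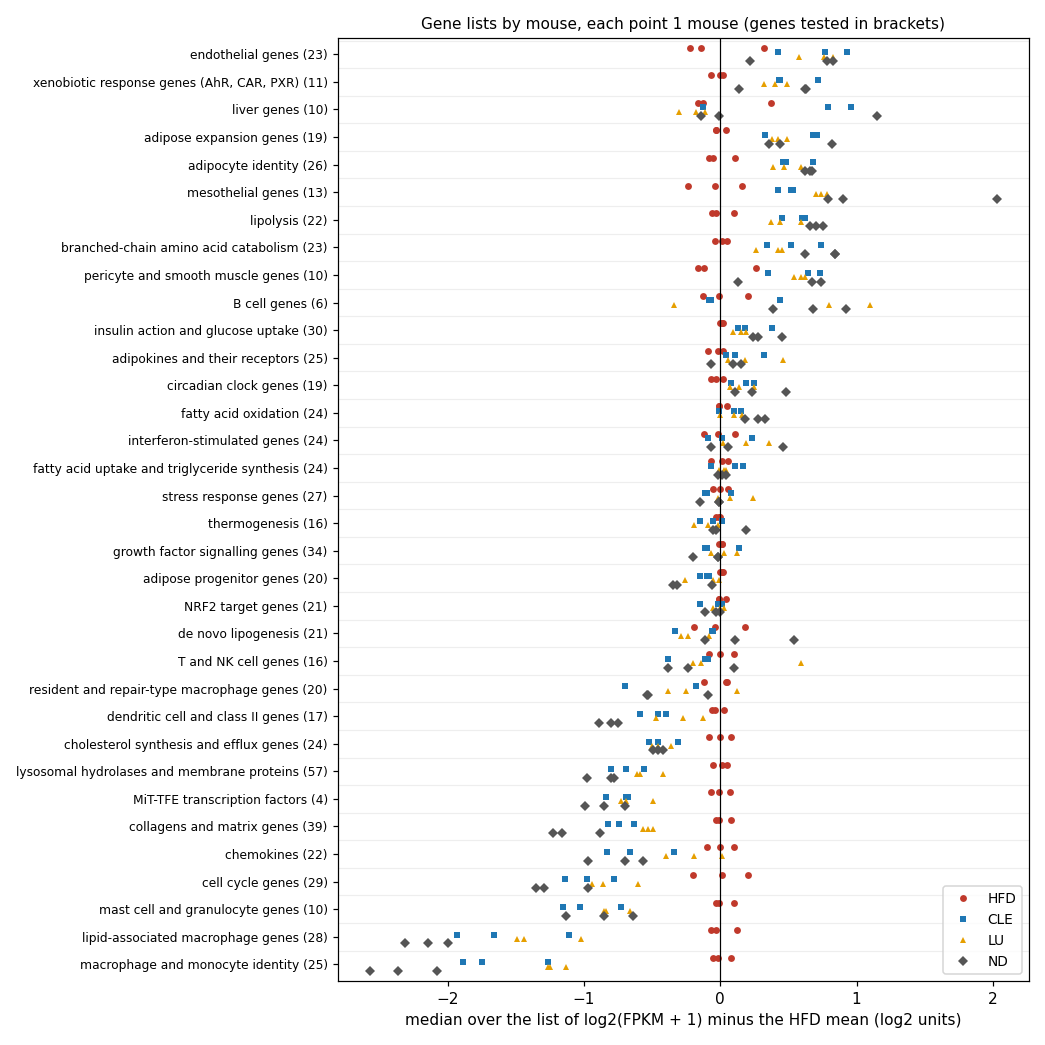
Each point is 1 mouse and shows the median, over the tested genes of a list (number in brackets), of its log2(FPKM + 1) minus the HFD mean, for the 34 lists with at least 4 tested genes. CLE mice (squares) lie left of all HFD mice (circles) in the macrophage, lysosome, cell cycle and matrix lists and right of them in the adipocyte, lipolysis, branched-chain amino acid and endothelial lists.

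The levels were also set beside the other diets. Between CLE and LU, which both rest on 3 mice, 1 of the 12775 genes was called (0.00783%), *Xcl1*, and 672 had an unadjusted p under 0.05 (5.26%). Among the 25 genes with the smallest p, the 5 with the largest differences were *Gm20431*, *Ccl8*, *Gm49388*, *Xcl1* and *Ms4a7*. *Ccl8*, a chemokine of resident macrophages, was at 11.9, 11.6 and 11.9 in the CLE mice and 25.9, 33.3 and 20.9 in the LU mice (CLE minus LU -1.09, SE 0.30, adjusted p = 0.891). *Ms4a7*, a membrane protein of macrophages, was at 5.44, 9.51 and 8.72 and 13.3, 15.3 and 12.8 (-0.76, SE 0.21, adjusted p = 0.891). Neither passed the adjustment. The mice did not overlap in either gene, but both were picked from the smallest p-values, which favours such a separation. *Gm20431*, at 2.25, 1.93 and 1.82 and 0.398, 0.543 and 0.0739, and *Gm49388*, at 0.39, 0.536 and 0.356 and 2.61, 1.28 and 2.1, overlap other genes. For *Trem2* the difference between CLE and LU was -0.74 with a 95% interval of -1.92 to 0.44, and for *Fam13a* it was 1.06 with an interval of 0.06 to 2.07 before any adjustment, and in both the mice of the groups overlapped. Intervals of this width hold differences of over 2-fold, so the missing calls do not show that the supplements act alike. The doses differ, as CLE was 1.5% and luteolin 0.003% of the diet.

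Between CLE and ND, 263 genes were higher with CLE (2.06%) and 109 lower (0.853%). Of the 25 macrophage and monocyte genes, 12 were higher in CLE than in ND and 0 lower, and of the 28 lipid-associated macrophage genes 8 and 0. These calls rest on the spread shared by all 12 libraries: in a limma fit of only the CLE and ND groups 0 of all genes were called, with a smallest adjusted p of 0.086 and 2290 genes at an unadjusted p under 0.05. *Trem2* was at 1.49, 1.88 and 1.18 in the ND mice (CLE minus ND 2.67, SE 0.54, adjusted p = 0.021) and *Cd68* at 15.8, 16.2 and 12.6 (1.47, SE 0.29, adjusted p = 0.019). The CLE values for these genes thus lay between those of the HFD and ND mice. *Lep* was at 194, 248 and 302 in the ND mice, below every CLE mouse (1.26, SE 0.23, adjusted p = 0.015), and *Cfd* at 7206, 4560.3 and 3999, above every CLE mouse (-1.32, SE 0.23, adjusted p = 0.014). For *Adipoq*, at 1866, 2292 and 2249.8 in the ND mice, the difference was -0.15 (SE 0.12, adjusted p = 0.51), and for *Col3a1*, at 148, 233 and 230.3, it was 0.33 (SE 0.21, adjusted p = 0.366). Of the 29 cell cycle genes and the 23 endothelial genes, 0 were called by limma between CLE and ND, and 3 and 1 of them had an unadjusted p under 0.05. The number of calls over all genes was 124 to 498 when single libraries were left out, with 124 without ND mouse 2 and 127 without CLE mouse 11.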

How the data were processed

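RNA of whole eWAT was sequenced (TruSeq mRNA, paired ends, no strand marking) in 12 libraries, 3 mice in each of the ND, HFD, CLE and LU groups. Per the labels and the study's methods, the authors used CASAVA 1.8.2, TopHat2 2.0.12, Bowtie2 2.2.3 and Cufflinks 2.2.1 and deposited 1 table of FPKM values per transcript. The genome build and annotation are not given in the sources used here, and transcript coordinates matched GRCm38 (87.6% had the start and end of GENCODE M21). The table also holds the authors' own calls and fold changes, which were not used, and 3 FPKM columns that match no sample and were left out. The column headed MD4 was taken as ND mouse 4, the only ND mouse without a column of its own, and no CLE or HFD value rests on it except through the shared spread.

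The FPKM values of the Ensembl transcript rows of each gene were summed, together with assembled transcripts that the authors' assembly joined to the gene. Transcripts assembled without an Ensembl identifier and assembled rows of any other class were left out. The joined transcripts held 66.3% of the value of *Insr*, 42.2% of that of *Pparg* and 0% of that of *Plin1*. Differences were tested with limma 3.58.1 (R 4.3.3) in a single fit of log2(FPKM + 1) over the 12 libraries, with a coefficient per group and no covariate, among genes with at least 1 FPKM in at least 3 libraries, with Benjamini-Hochberg adjustment. Calls required an adjusted p below 0.05 together with a change of more than 1.5-fold. Because the table holds no counts and FPKM steps of whole reads were not found, no count test was run and depth per library is unknown. An exact permutation test of 3 mice against 3 cannot go below 0.1. The fit was tested on simulated data first.

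Genes were named by a rule: genes of 36 lists marked for their role, the 10 largest rises and 10 largest falls among called genes whose mice did not overlap and whose higher group averaged at least 5 FPKM, the 5 called genes with the widest range among CLE mice, and the 5 largest differences between CLE and LU among the 25 smallest p-values. Genes listed at 0 in every mouse of a group were left out, and some genes that the rule names are not reported here. Other members of a list that are named with values (such as *Ctss*, *Gla*, *Soat1* and *Sox18*) were chosen as examples after their values were seen. Genes, lists and tests were chosen with earlier results of these data known, so none is independent support. Promoter sequences are those of RefSeq (GRCm38.p6). The alternatives tried were another pseudocount, filters, scalings, variance models, the letter R, the highest transcript in place of the sum, and leaving out each library.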

Additional observations from a re-analysis of the deposited data

Results flagged for a closer look

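*Xcl1*, a chemokine of cytotoxic T and NK cells, was the only gene called between the CLE and LU groups, which were compared directly by limma. The CLE mice (2, 4 and 11) had 0.162, 0 and 0 FPKM. Levels were 1.06, 0.92 and 1.22 for the LU mice (2, 3 and 8), 1.14, 0.906 and 0.898 for the HFD mice (12, 15 and 18) and 0.407, 0.554 and 0.162 for the ND mice (2, 3 and 4). The difference of CLE minus LU was -0.97 on the log2(FPKM + 1) scale (adjusted p = 0.039). *Xcl1* was also called lower with CLE than in HFD (-0.91, SE 0.12, adjusted p = 0.00016 by limma). It is not among the tested genes of the T and NK cell list, of which 0 were called. All these levels are near or below 1 FPKM. *Xcl1* passed the filter of at least 1 FPKM in 3 libraries only through HFD mouse 12 and LU mice 2 and 8. It was thus tested only because of groups where it was high. With no filter 0 genes were called between CLE and LU (smallest adjusted p 0.148 by limma). The call was also lost when any 1 HFD, CLE or LU library or ND mouse 2 was left out. Groups of 3 are too small for a test of single outlying samples.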

How the results depend on the processing

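The depth behind each FPKM is unknown, 3 mice per group limit the precision, and the letter R cannot be separated from diet within the HFD group, which has no such library. Under the alternatives tried, 626 to 1044 genes were called higher with CLE than in HFD and 825 to 1458 lower, where a fold limit was kept. By the adjusted p alone the counts were 1984 higher and 2314 lower, and with a filter on a mean of 5 FPKM, which tests fewer genes, 825 were lower. Leaving out single libraries gave 658 to 899 higher and 1190 to 1421 lower. Of the 2105 genes called, 71.9% were called in all 12 of these fits, 93.2% without CLE mouse 11, 84.3% among the libraries lacking the letter R and 78.1% with the highest transcript per gene. Scaling moved the median of all genes by at most 0.05. Between CLE and LU, 0 genes were called with a pseudocount of 0.1, with no filter, with the mean filter, with median ratio scaling, with quantile normalization, in a fit of only these groups, with a variance trend, with the letter R as a covariate and with the highest transcript (460 to 993 genes at an unadjusted p under 0.05 in these limma fits), and 0 to 1 when single libraries were left out. Between CLE and ND, 372 genes were called, but 227 with no filter, 0 in a fit of only these groups (2290 at an unadjusted p under 0.05), 183 among libraries lacking the letter R, 207 with the highest transcript, 661 by the adjusted p alone and 124 to 498 when single libraries were left out. The causes were not tested. In the lists with 0 calls in a direction, 0 to 3 members had an unadjusted p under 0.05 in that direction.

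Of the named values, 57 gene values changed sign, none of them of a called gene, and 5 list medians did so by more than 1 SD between the CLE mice. With all libraries, *Tfe3* was at 0.00, *Lpl* at 0.19, *Mertk* at -0.01 and *Ly6c2* at -0.77 with the highest transcript, and with quantile normalization *Mcoln1* was at 0.02, *Ppara* at 0.02, *Bcat2* at 0.01, *Prdm16* at 0.03 and *Dbp* at 0.04. With equal totals *Prdm16* was at 0.01 and *Dbp* at 0.00, with array weights *Dbp* at 0.01 and *Ifit1* at -0.04, and with a pseudocount of 0.1 *Ppargc1a* at -0.04. With the letter R as a covariate *Mertk* was at -0.02, *Ppara* at 0.07, *Ppargc1a* at -0.18, *Lyve1* at -0.08 and *Mest* at 0.01. Without the letter R libraries *Mertk* was at -0.16, *Ppara* at 0.05, *Fasn* at 0.01, *Ppargc1a* at -0.34, *Lyve1* at -0.12, *Prdm16* at 0.01, *Mest* at 0.21 and the median of NRF2 targets at 0.03. When single libraries were left out, the values that changed sign in some of the fits ranged from -0.13 to 0.07 for *Mcoln1*, -0.25 to 0.01 for *Mlxipl*, -0.16 to 0.17 for *Mertk*, -0.07 to 0.15 for *Sfrp5*, -0.19 to 0.06 for *Ppara*, -0.33 to 0.01 for *Fasn*, -0.34 to 0.19 for *Ppargc1a*, -0.12 to 0.64 for *Lyve1*, -0.15 to 0.10 for *Bcat2*, -0.01 to 0.13 for *Ppargc1b*, -0.09 to 0.14 for *Ifit1*, -0.01 to 0.55 for *Cxcl10*, -0.48 to 0.01 for *Dpp4*, -0.21 to 0.19 for *Prdm16*, -0.16 to 0.21 for *Mest*, -0.11 to 0.12 for *Dbp* and -0.33 to 0.02 for *Gm49388*. The medians ranged from -0.09 to 0.38 for B cell genes, -0.43 to 0.55 for skeletal muscle genes and -0.16 to 0.03 for NRF2 target genes. Within 1 SD, the medians of interferon-stimulated genes (-0.10 to 0.13, and -0.01 with the highest transcript), stress response genes (-0.07 to 0.05, and -0.10 with the mean filter) and the 1 epididymis gene tested (-0.06 to 0.15, and -0.02 without the letter R libraries) lay on both sides of 0. Calls of the named genes *Mmp9*, *Acaca*, *Ebf2*, *Scd2*, *Fscn1*, *Thbs1*, *Lrrn4*, *Serpina1c* and *Ccl8* were lost with no filter, of *Cldn15*, *Mmp9*, *Acaca*, *Ebf2*, *Fscn1*, *Mitf*, *Lrrn4*, *Emcn*, *Bckdha* and *Serpina1c* with the highest transcript, and of *Pvalb*, *Ccl8*, *Ccl4*, *Acaca*, *Ebf2*, *Gpd1*, *Cpt1a*, *Cpt1b*, *Fscn1*, *Lamp1*, *Thbs1*, *Insig1*, *Mmp12*, *Emcn* and *Gm20431* without the letter R libraries. No paired analysis was possible because the CLE and HFD groups share no mouse number.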
